A study of Mus musculus with 40 samples.

Results

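The comparison described here is that of QKO with TKO mouse embryonic stem (mES) cells in the naive state, that is, the disruption of *Lbr* added to cells that already lacked every lamin. Its members were 8 of the 40 RNA-seq libraries, 4 of TKO and 4 of QKO mES cells, taken by their labels and read in 2 count tables, one of genes and one of genes with transposable element (TE) families. Of 56748 genes listed, 23399 had enough reads to be tested, together with 1142 TE families and 53304 single TE copies.

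LBR, the lamin B receptor, is a protein of the inner nuclear membrane that binds heterochromatin, and its membrane-embedded part is a sterol reductase of cholesterol synthesis. The lamins are the filament proteins that line the same membrane. In cells where lamins are missing, LBR is known as the other main tether that can hold silent chromatin, marked by H3K9 methylation, at the nuclear edge, and endogenous retroviruses and LINEs make up much of that chromatin.

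The study asked what the position of heterochromatin at the nuclear periphery does for genes and transposons, and sequenced ribosome-depleted total RNA from XY mES cells and from epiblast-like cells (EpiLCs). TKO cells carry deletions of *Lmna*, *Lmnb1* and *Lmnb2*, and QKO cells are TKO cells with CRISPR–Cas9 deletions in *Lbr*. Both were kept in serum-free 2i medium (3 μM CHIR-99021 and 1 μM PD0325901) with LIF and were harvested after 48 h, and every library came from a well of its own. WT cells of a littermate line (8 libraries) and LBR KO cells made from them (4 libraries) gave the other mES groups used below, and 4 TKO and 4 QKO libraries came from EpiLCs after 48 h in FGF and activin A. The QKO cells were a single clone, the only one to survive, with a frameshift deletion on one *Lbr* allele and an in-frame deletion on the other, so clone and *Lbr* disruption cannot be told apart. The TKO line was karyotyped with an extra chromosome 8 and, in part of its cells, no Y chromosome. The p-values measure the spread between wells of a line, and in bulk RNA fewer cells of a type and less RNA per cell cannot be told apart.

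Counts on genes ran from 27.1 M to 33.6 M per TKO library and from 24.5 M to 30.6 M per QKO library, and the first principal component of these 8 libraries, with 39.2% of the variance, set all QKO libraries apart from all TKO libraries. Levels are given in CPM, counts scaled to a common library size by TMM, a factor per library that centres most genes on no change, and their errors are SD over 4 libraries unless stated. Differences are log2 fold changes, QKO minus TKO, ± SE from the edgeR quasi-likelihood test, with p-values adjusted by Benjamini-Hochberg over all genes tested. A gene that rose or fell had an adjusted p under 0.05 and a fold change over 2. The *Lbr* transcript (ENSMUSG00000004880.12, chromosome 1, 181642900 to 181670611, GRCm39) had 350, 373, 357 and 333 CPM in TKO replicates 1 to 4 and 238, 237, 236 and 239 CPM in QKO. Every QKO library lay below every TKO library, with a difference of -0.57 ± 0.15 (edgeR, adjusted p = 0.0058), which did not reach 2-fold. The deletions leave most of the transcript in place, so that the RNA level checks the label only in part. For the protein, the study reports depletion by western blot and no detectable LBR by immunostaining. The deleted lamin genes were low in both groups. *Lmnb1* had 8.47 ± 0.261 CPM in TKO and 13.8 ± 1.49 CPM in QKO, against 515 CPM in WT, and *Lmnb2* 4.30 ± 0.352 and 2.58 ± 0.797 CPM, against 105 CPM. *Lmna* had 15.9 ± 1.37 CPM in TKO, against 57.8 CPM in WT, and differed by 0.26 ± 0.11 in QKO (adjusted p = 0.0937).

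In QKO cells 956 of 23399 genes (4.09%) rose and 496 (2.12%) fell against TKO, while the median over all genes was 0.02. Most genes that rose were barely expressed. Of the 956, 334 had a mean over the 8 libraries under 0.5 CPM and 233 one between 0.5 and 1 CPM, and 230 were long non-coding RNAs, of 3253 tested, against 35 that fell. Among 15477 protein-coding genes 511 rose and 440 fell. Well expressed genes moved least often: of 7129 genes over 20 CPM, 24 rose and 32 fell. The medians of the log2 differences followed the same order, at -0.03 for protein-coding genes, 0.40 for long non-coding RNAs and 0.53 for unconfirmed transcripts (GENCODE class TEC). No autosome or the X chromosome stood apart, with medians per chromosome from -0.03 to 0.07. Without the fold threshold 2144 genes (9.16%) were higher and 2650 (11.3%) lower, 20.5% in all, and with it 6.21% changed in either direction.

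**Figure D1:**
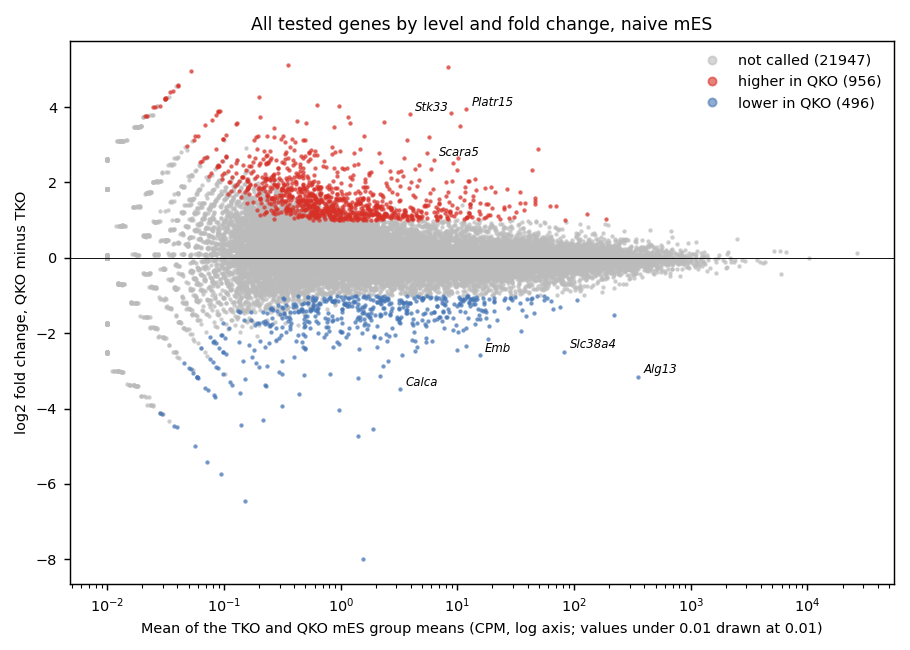
Each point is 1 of the 23399 genes tested, with the mean of the TKO and QKO group means on the x axis (CPM, log scale) and the log2 fold change, QKO minus TKO, on the y axis. The 956 genes that rose (red) lie mostly at low levels, and few genes over 20 CPM are coloured. *Alg13* and *Slc38a4* stand out among the well expressed genes that fell (blue).

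The leading genes had at least 5 CPM in the higher group, no overlap between libraries and a symbol that is no clone name. Of these *Platr15* (ENSMUSG00000086563.2, chromosome 2, 150546456 to 150548796), a long non-coding RNA first listed among transcripts tied to pluripotency, rose most. It had 1.32, 1.79, 1.41 and 1.28 CPM in TKO replicates 1 to 4 and 19.7, 27.8, 20.9 and 20.8 CPM in QKO (log2 difference 3.94 ± 0.37, edgeR adjusted p = 5.16e-11). QKO replicate 2 was the highest, and even the lowest QKO library was far above all of TKO. WT mES cells had 0.188 ± 0.0689 CPM (n = 8). *Tmem132d*, which encodes a single-pass membrane protein, had 0.892, 1.18, 1.00 and 1.50 CPM in TKO and 16.1, 16.5, 16.4 and 17.0 CPM in QKO (3.85 ± 0.37). *Stk33*, a serine/threonine kinase gene, had 0.727, 0.250, 0.707 and 0.365 CPM in TKO and 8.45, 6.86, 7.07 and 6.76 CPM in QKO (3.81 ± 0.57). For both genes the groups were far apart and the QKO libraries close together.

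Genes of other kinds rose with them. *Mgat4c*, of a family of enzymes that branch N-glycans, went from 1.11 ± 0.268 to 10.3 ± 0.287 CPM (3.21 ± 0.35), and *Scara5*, a scavenger receptor for ferritin, from 1.78 ± 0.249 to 10.8 ± 0.764 CPM (2.60 ± 0.19). A pair of aldo-keto reductase genes were among the leading 12, *Akr1c18*, whose enzyme inactivates progesterone, at 2.47 ± 0.45 and *Akr1cl* at 2.34 ± 0.31. *Apol6*, of the apolipoprotein L family, rose by 2.35 ± 0.38. Genes best known from testis or early embryos were there as well, with *Adam32*, a sperm-type ADAM gene, at 2.79 ± 0.36 and *Tdpoz8* at 3.11 ± 0.50. *Tdpoz8* and *Serpina3m* (2.64 ± 0.43), a protease inhibitor gene, sit in clusters of near-identical copies, and their single values are uncertain. All these genes had no overlap between the 4 TKO and the 4 QKO libraries, which was part of the rule that chose them.

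Among the leading genes the fall was deepest for *Calca* (ENSMUSG00000030669.14, chromosome 7, 114230713 to 114235592), the gene of the hormones calcitonin and CGRP. It had 5.38, 6.39, 6.81 and 5.33 CPM in TKO replicates 1 to 4 and 0.455, 0.383, 0.511 and 0.755 CPM in QKO (-3.49 ± 0.18, edgeR adjusted p = 1.59e-18). The QKO libraries all stayed under 1 CPM and the TKO libraries all over 5 CPM. *Pam*, whose enzyme amidates peptide hormones such as those from *Calca*, had 6.74, 8.93, 7.16 and 7.27 CPM in TKO and 1.49, 1.92, 1.53 and 0.858 CPM in QKO (-2.38 ± 0.15). WT cells expressed both genes above the TKO level, at 18.8 ± 1.68 CPM for *Calca* and 11.0 ± 1.53 CPM for *Pam* (n = 8).

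*Alg13* (ENSMUSG00000041718.17, chromosome X, 143100800 to 143157446), which encodes a subunit of an enzyme of early N-glycan synthesis, was by far the best expressed gene in the leading 12. Its level was 621, 665, 646 and 622 CPM in TKO replicates 1 to 4 and 63.2, 69.8, 78.8 and 75.0 CPM in QKO (-3.16 ± 0.09, adjusted p = 6.60e-28). WT cells had 709 ± 36.1 CPM and LBR KO cells 723 ± 42.3 CPM, so that of the 4 mES genotypes QKO alone had a low level.

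*Slc38a4* (ENSMUSG00000022464.15, chromosome 15, 96892701 to 96953837), which codes for a transporter of amino acids and is imprinted, had 143, 142, 146 and 131 CPM in TKO and 26.0, 21.6, 26.9 and 25.5 CPM in QKO (-2.49 ± 0.11, adjusted p = 1.50e-20). Here WT cells were lowest, at 7.16 ± 1.11 CPM, and QKO lay between WT and TKO. *Emb*, for embigin, a membrane partner of lactate transporters, had 25.8, 26.9, 27.7 and 26.4 CPM in TKO and 5.33, 4.06, 3.77 and 4.53 CPM in QKO (-2.59 ± 0.11). For each of them the groups were wide apart.

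The other leading genes that fell came from several processes. *Crb3*, a Crumbs protein of epithelial polarity, went from 5.70 ± 0.846 to 0.952 ± 0.219 CPM (-2.57 ± 0.15), and *Ap3b2*, a subunit of the neuronal AP-3 adaptor, from 16.9 ± 1.77 to 3.10 ± 0.406 CPM (-2.44 ± 0.15). *Calb2*, the calcium-binding protein calretinin, fell by 2.33 on the log2 scale. Genes for nuclear regulators also fell, *Phf19*, a Polycomb-like protein, from 8.89 ± 0.569 to 1.88 ± 0.271 CPM (-2.24 ± 0.22) and *Myb*, a transcription factor of blood progenitors, from 9.96 ± 0.596 to 2.17 ± 0.449 CPM (-2.20 ± 0.11). *Lratd2* (-2.48 ± 0.13) and *Exoc3l2*, an exocyst-like gene (-2.20 ± 0.22), complete the 12.

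**Figure D2:**
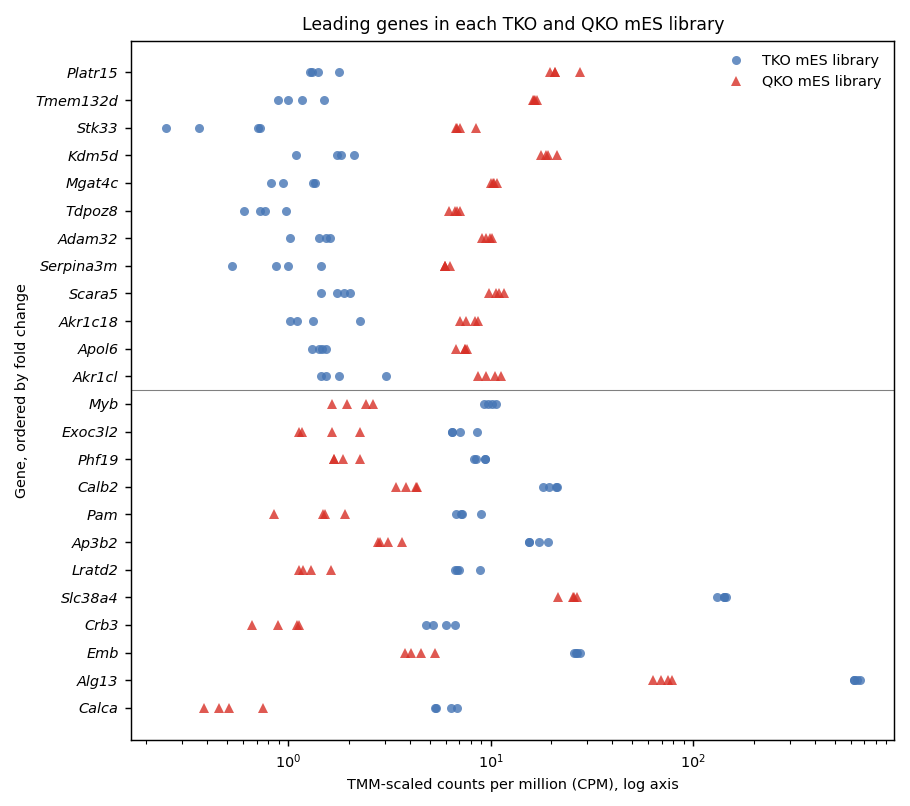
The 12 genes with the highest and the 12 with the lowest log2 fold change under the rule for named genes are drawn in each of the 4 TKO (circles) and 4 QKO (triangles) mES libraries, on a log axis of CPM. In every row the circles and triangles do not overlap, and *Alg13* and *Slc38a4* are the only genes drawn that exceed 100 CPM.

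The sequence just upstream of these genes was read from GRCm39, 250 bases before the annotated start. Windows are shown for a gene that rose (Scara5) and for genes that fell (Slc38a4 and Emb), which hold few CpG dinucleotides, and for Myb, which also fell and holds many. Capitals mark each CG, the only motif searched, which reads the same on both strands.
Scara5 (chr14:65903602-65903851, plus strand): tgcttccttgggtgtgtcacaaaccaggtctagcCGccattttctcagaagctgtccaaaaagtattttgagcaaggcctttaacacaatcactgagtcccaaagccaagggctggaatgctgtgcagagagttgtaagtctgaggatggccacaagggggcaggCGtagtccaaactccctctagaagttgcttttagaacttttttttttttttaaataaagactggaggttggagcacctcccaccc
Slc38a4 (chr15:96953838-96954087, minus strand): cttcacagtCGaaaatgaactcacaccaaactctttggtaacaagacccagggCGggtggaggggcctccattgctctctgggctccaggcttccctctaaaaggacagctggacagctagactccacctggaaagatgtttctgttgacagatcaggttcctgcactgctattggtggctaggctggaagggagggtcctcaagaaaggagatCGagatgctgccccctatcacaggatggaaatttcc
Emb (chr13:117344822-117345071, plus strand): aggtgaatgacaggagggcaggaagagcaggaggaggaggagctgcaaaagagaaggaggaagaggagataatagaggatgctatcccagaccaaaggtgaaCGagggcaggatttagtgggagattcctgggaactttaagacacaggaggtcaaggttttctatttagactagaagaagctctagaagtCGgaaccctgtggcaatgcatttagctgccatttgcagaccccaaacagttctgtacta
Myb (chr10:21036884-21037133, minus strand): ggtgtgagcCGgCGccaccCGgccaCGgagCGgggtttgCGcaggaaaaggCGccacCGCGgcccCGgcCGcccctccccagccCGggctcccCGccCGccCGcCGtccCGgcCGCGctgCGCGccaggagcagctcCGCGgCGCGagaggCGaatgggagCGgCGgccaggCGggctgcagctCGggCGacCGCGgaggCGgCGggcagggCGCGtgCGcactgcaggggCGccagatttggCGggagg
The windows of Scara5 and Emb hold 2 CG each and that of Slc38a4 holds 3, while that of Myb holds 40. Over all protein-coding genes with at least 1 CPM in the higher group, the ratio of CpG observed to that from base composition had a median of 0.69, and 2570 of 12324 windows (20.9%) were under 0.4. Of the genes that rose 165 of 299 windows (55.2%) were under 0.4, with a median of 0.35, and of the genes that fell 123 of 307 (40.1%), with a median of 0.49. Median GC content was 52.0% in the windows of genes that rose, 58.4% in those that fell and 58.4% over all. These are descriptions of the windows, and a gene's annotated start need not be the one in use in these cells. The sets were not matched for level beyond 1 CPM, and genes over 20 CPM changed least often. The part of level in these shares was not tested.

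Pluripotency genes differed little. Of 14 naive pluripotency genes none rose or fell, where 6.21% of all genes did, and their median difference was -0.01. The same held for 6 core genes, where the median was also -0.01. Of 7129 genes over 20 CPM only 24 rose and 32 fell, so the lack of calls in such small lists says little by itself. The level of *Nanog* was 817, 843, 835 and 812 CPM in TKO replicates 1 to 4 and 829, 826, 812 and 808 CPM in QKO (-0.01 ± 0.18). *Esrrb* (-0.06 ± 0.10), *Klf4* (0.12 ± 0.19), *Tfcp2l1* (0.15 ± 0.15), *Pou5f1* (0.08 ± 0.11) and *Sox2* (-0.01 ± 0.10) differed by less than 0.2, and the groups of *Nanog* overlapped. *Lin28a*, an RNA-binding protein gene of the core list, was lower without reaching 2-fold, with 123, 132, 126 and 127 CPM in TKO and 77.7, 76.0, 72.7 and 69.3 CPM in QKO (-0.78 ± 0.14, edgeR adjusted p = 7.72e-05). Among 13 genes of the formative and primed epiblast *Otx2* alone fell, from 17.5 ± 0.286 to 8.20 ± 1.63 CPM (-1.09 ± 0.36).

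Markers of the first lineages moved in both directions. Of 14 trophectoderm genes 3 rose and 3 fell, where 4.09% of all genes rose and 2.12% fell. The transcription factors *Cdx2* (0.0660 ± 0.0542 to 1.18 ± 0.298 CPM, 4.07 ± 0.98), *Gata3* (0.722 ± 0.0920 to 2.66 ± 0.340 CPM, 1.88 ± 0.26) and *Gata2* (0.857 ± 0.0914 to 2.15 ± 0.161 CPM, 1.33 ± 0.29) rose at low levels. *Eomes*, another factor of this lineage, fell from 6.58 ± 0.774 to 2.45 ± 0.323 CPM (-1.42 ± 0.13), and the keratins *Krt18* (-1.23 ± 0.20) and *Krt7* (-3.09 ± 0.60) fell as well. Of 19 primitive endoderm genes 1 rose and 2 fell, *Sox7* and *Fgfr2*, the latter, a receptor for FGF, from 1.84 ± 0.427 to 0.450 ± 0.120 CPM (-2.01 ± 0.26).

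Genes of later lineages also changed, and their counts are set beside the 6.21% of all genes that did so. Of 14 mesendoderm genes 2 fell, *Eomes* and *Lefty1*, a secreted inhibitor of Nodal signalling (18.4 ± 1.75 to 6.11 ± 0.537 CPM, -1.60 ± 0.36). Of 12 neural progenitor genes *Map2* (-1.63 ± 0.19) and *Sox11* (-1.08 ± 0.23) fell, and *Nkx2-2* rose with at most 5 reads in a library. None of 8 fibroblast genes tested rose or fell, and *Col1a1*, the collagen that defines that cell type, had 1.00 ± 0.416 CPM in TKO and 1.31 ± 0.453 CPM in QKO.

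No gene in the lists of the nuclear edge and of heterochromatin reached both thresholds, where 6.21% of all genes did. Well expressed genes were called least often (24 rose and 32 fell of 7129 over 20 CPM), so the lack of calls in such small lists says little. Of 22 nuclear envelope genes 3 were higher and 1 lower at an adjusted p under 0.05, with a median of -0.03, and of 25 genes of H3K9 methylation and HP1 4 were higher and 5 lower, with a median of -0.04, beside 20.5% of all genes. *Sun1*, of the link to the cytoskeleton, differed by 0.02 ± 0.06 and *Emd*, for emerin, by -0.06 ± 0.09. The H3K9 methyltransferase genes *Ehmt1* (-0.18 ± 0.06), *Ehmt2* (0.11 ± 0.07) and *Setdb1* (0.29 ± 0.07) stayed within 0.3. Of 17 genes of DNA methylation and retrotransposon silencing 3 were higher and 5 lower at an adjusted p under 0.05, all by less than 2-fold. *Dnmt3l*, the cofactor of the de novo methyltransferases, came nearest, with 57.7, 60.1, 61.6 and 52.2 CPM in TKO and 110, 123, 109 and 107 CPM in QKO (0.96 ± 0.12, edgeR adjusted p = 3.50e-08). All QKO libraries exceeded all TKO libraries. The partner genes *Dnmt3a* (-0.39 ± 0.10) and *Dnmt3b* (0.12 ± 0.12) did not follow.

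Genes of cholesterol synthesis and its control, the pathway to which LBR itself belongs, were mostly lower. Of 24 members 22 had a negative difference, 14 of these with an adjusted p under 0.05, against 11.3% of all genes, and the median was -0.37, beside 0.02 over all genes. The fold threshold was passed by 2 of the 14, *Idi1* among them. *Idi1*, of the isoprenoid steps, had 40.2, 44.6, 46.3 and 37.3 CPM in TKO and 21.1, 21.1, 19.5 and 19.8 CPM in QKO (-1.05 ± 0.11, edgeR adjusted p = 8.4e-10), with no overlap between the groups. Smaller differences were measured for *Dhcr7*, the last reductase of the pathway (-0.75 ± 0.08), *Insig1*, which restrains the pathway (-0.73 ± 0.08), and *Tm7sf2*, whose enzyme shares the reductase activity of LBR (-0.61 ± 0.14). *Sqle*, of the squalene steps (-0.15 ± 0.09), did not pass. Cholesterol itself was measured in the study, which reports its level as unaffected by LBR ablation.

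Genes of other lists changed in small numbers, to be read beside the 4.09% of all genes that rose and the 2.12% that fell. Of 21 germline and meiosis genes 4 rose (*Brdt*, *Tdrd1*, *Tex101* and *Asz1*), all with means under 1 CPM in QKO and, for *Tdrd1*, at most 9 reads in a library, and none fell. Of 12 tested genes of the 2-cell-like state 1 rose, *Ubtfl1* (0.159 ± 0.0570 to 2.16 ± 0.119 CPM, 3.73 ± 0.61), while *Zscan4c*, a defining gene of that state, was at 0 in all TKO libraries and in 3 of 4 QKO libraries. Of 25 antiviral and interferon genes *Ddx60*, a helicase gene, rose (0.858 ± 0.251 to 2.58 ± 0.667 CPM) and *Oasl1* (7.56 ± 0.884 to 2.38 ± 0.623 CPM) and *Zbp1*, a sensor of Z-form nucleic acid, fell. Of 20 p53 targets *Plk2*, a stress-induced kinase gene, rose from 23.1 ± 0.635 to 68.9 ± 3.05 CPM (1.58 ± 0.19) and *Ddit4* fell from 80.3 ± 6.05 to 38.1 ± 4.26 CPM (-1.08 ± 0.20). Of 32 imprinted genes *Slc38a4* and *Slc22a18* fell and *Igf2* rose, the last with at most 5 reads in a library.

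Gene clusters gave some of the risen genes, where 4.09% of all genes rose and 2.12% fell. By the adjusted p alone 9.16% of all genes were higher and 11.3% lower. Of 28 *Platr* transcripts 4 rose and none fell, with *Platr16* at 1.14 ± 0.15, *Platr5* at 1.88 ± 0.41 and *Platr6* at 1.00 ± 0.28 beside *Platr15*. Of 9 tested genes of the Schlafen cluster on chromosome 11, whose members share reads, 3 rose. *Slfnlnc*, its non-coding RNA, had 6.38, 6.28, 7.13 and 5.85 CPM in TKO and 23.5, 21.8, 19.8 and 23.8 CPM in QKO (1.79 ± 0.20, adjusted p = 2.60e-09), without overlap. Of 26 tested clustered protocadherins 25 had a positive difference and 8 an adjusted p under 0.05, and 2 of these rose over 2-fold, *Pcdhb14* and *Pcdhgc4*, at under 2 CPM in every library. Of 61 KRAB zinc finger genes named *Zfp900* to *Zfp999* 45 had a positive difference, with a median of 0.19. At an adjusted p under 0.05 14 were higher and 3 lower, and the only one past 2-fold, *Zfp974*, fell (-1.02 ± 0.16). Of 57 replication-dependent histone genes *H2bc22* rose and *H2bc14* fell, and QKO replicate 4 went against the other QKO libraries in both. *H2bc22* had 51.9, 73.6, 61.6 and 14.9 CPM in QKO replicates 1 to 4, and *H2bc14* 17.0, 19.2, 17.4 and 47.1 CPM, against 18.3 ± 2.99 and 54.0 ± 4.07 CPM in TKO.

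Of 14 tested genes of the Y chromosome 5 rose and 0 fell, where 4.09% of all genes rose and 2.12% fell. Of 6 in the list 5 were higher at an adjusted p under 0.05, as were 9.16% of all genes. Of these *Kdm5d*, a histone demethylase gene, and *Zfy1*, a zinc finger gene, passed the fold threshold. *Kdm5d* had 1.75, 2.11, 1.83 and 1.10 CPM in TKO replicates 1 to 4 and 18.7, 19.3, 17.8 and 21.3 CPM in QKO (3.50 ± 0.23, edgeR adjusted p = 4.17e-15), and *Zfy1* rose from 3.88 ± 0.228 to 12.2 ± 1.16 CPM. *Uba1y*, outside the list and chosen after its values were seen, rose from 14.7 ± 0.436 to 73.0 ± 0.646 CPM (2.32 ± 0.12). The widely expressed Y genes differed less, *Eif2s3y* by 0.52 ± 0.11, *Ddx3y* by 0.49 ± 0.08 and *Uty* by 0.43 ± 0.09, and *Usp9y*, a low gene of the list, had a difference of -0.03 ± 0.29. The TKO line was karyotyped as a mix of cells with and without a Y chromosome, and the part of this mix in the values was not tested.

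Reads on TEs took a larger share of the QKO libraries. They made up 8.66, 9.08, 9.34 and 9.98% of the counts on genes and TEs in TKO replicates 1 to 4 and 11.3, 12.7, 13.8 and 12.7% in QKO. The means were 9.26 ± 0.550% and 12.6 ± 1.00%, and the difference was 3.38 percentage points, with every QKO library above every TKO library. A two-sided exact permutation test gave p = 0.0286 (adjusted over 5 shares p = 0.0357), the smallest that 4 against 4 libraries can give. LINEs went from 1.62 ± 0.138 to 2.36 ± 0.214%, SINEs from 3.86 ± 0.279 to 5.25 ± 0.442% and LTR elements from 2.27 ± 0.147 to 3.29 ± 0.270%, each with the same p. DNA transposons did not separate (1.28 ± 0.116 and 1.45 ± 0.147%, exact p = 0.171).

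The shift was broad. Over 1142 TE families the median log2 difference was 0.57, with 0.60 for LTR elements, 0.59 for LINEs, 0.51 for SINEs and 0.52 for DNA transposons. It included families long inactive: 11 families of the ancient L2 and MIR repeats had a median of 0.50, and none of them passed 2-fold. Ancient L2 and MIR copies at least 50 kb from any gene had 6.73 ± 0.514 CPM per Mb of repeat in TKO (6.10 to 7.30) and 13.5 ± 1.78 in QKO (11.4 to 15.4), against 4.24 ± 1.49 in WT (n = 8). The signal far from genes moved with the general shift of the families, and its part in it was not tested.

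Against this background 51 families (4.47%) rose and 0 (0%) fell, where 4 families were lower at an unadjusted p under 0.05 in edgeR, and 1 family was lower in DESeq2. Of the 8 leading families 4 came from RLTR45 and ERVB4 elements, endogenous retroviruses of the ERVK class. RLTR45-int, the internal part of these proviruses, had 151, 153, 167 and 162 CPM in TKO replicates 1 to 4 and 1043, 1097, 1130.4 and 1103 CPM in QKO (2.79 ± 0.15, edgeR adjusted p = 4.94e-17). The related internal sequences ERVB4_2-I_MM (29.0 ± 2.66 to 176 ± 14.5 CPM, 2.60 ± 0.13) and ERVB4_3-I_MM (2.45 ± 0.297 to 12.7 ± 1.08 CPM, 2.37 ± 0.28) rose alike, as did the terminal repeat ERVB4_2-LTR_MM (2.42 ± 0.47). Of 11 families in the list of RLTR45, ERVB4 and RLTR13D6 elements 5 rose. L1M3a, an old LINE with few reads, rose from 0.670 ± 0.168 to 4.17 ± 1.44 CPM (2.63 ± 0.40). RLTR13B1 (1.47 ± 0.15), RLTR13D4 (1.43 ± 0.22) and MER57E2 (1.32 ± 0.37) completed the 8 leading families.

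Families that are often active in mouse cells mostly did not reach 2-fold. Of 17 young LINE-1 families 0 rose or fell, although 15 were higher at an adjusted p under 0.05 in edgeR, as were 53.2% of all families, and their median was 0.61. L1MdA_I, of the A type, had 1941 ± 94.2 CPM in TKO and 2540.4 ± 157 CPM in QKO (0.39 ± 0.17, adjusted p = 0.107). It did pass the p threshold with only the 8 libraries in the fit (0.43, edgeR adjusted p = 1.1e-05). Of 25 IAP families 2 rose, IAPEY5_LTR (1.27 ± 0.44) and IAPEy-int (1.03 ± 0.15), and IAPEz-int had 441 ± 15.8 and 521 ± 35.2 CPM (0.24 ± 0.09). Of 5 ETn and MusD families 1 rose, ETnERV2-int (1.14 ± 0.16), while MMETn-int had 2719.9 ± 122 and 2484 ± 102 CPM (-0.13 ± 0.07). All 3 families of MERVL were higher at an adjusted p under 0.05 without reaching 2-fold, MERVL-int by 0.70 ± 0.19. When each family was measured against the TE families as a whole, a scaling chosen after seeing the data, the median moved to -0.01 and 4 families stayed higher, RLTR45-int (2.21), ERVB4_2-I_MM (2.03), L1M3a (2.00) and ERVB4_3-I_MM (1.80).

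**Figure D3:**
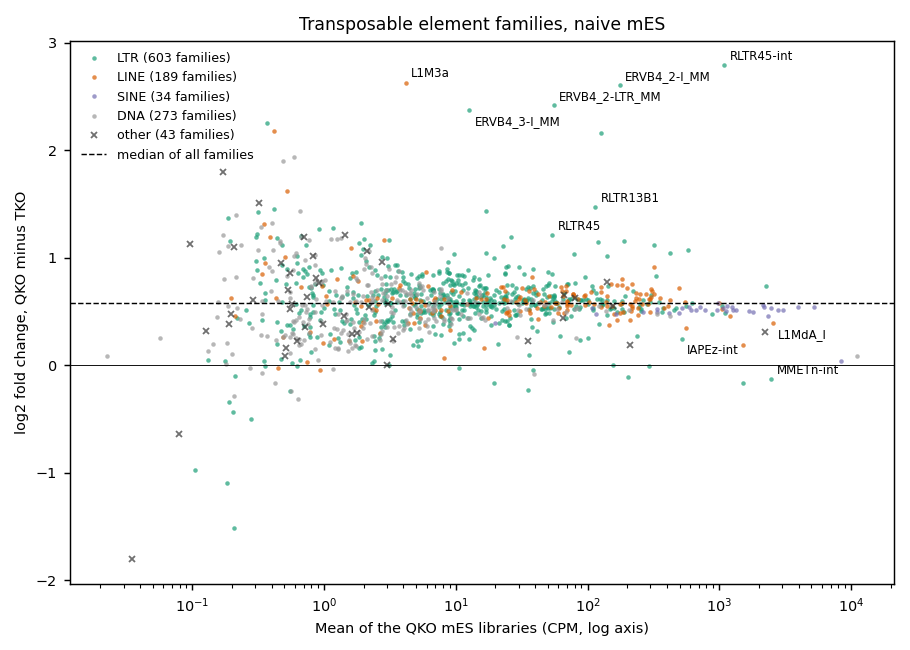
Each point is 1 of the 1142 TE families tested, with the mean of the QKO mES libraries on the x axis (CPM, log scale), the log2 fold change, QKO minus TKO, on the y axis and the class as colour. Most families lie in a band around the dashed median of 0.57. RLTR45-int, ERVB4_2-I_MM, ERVB4_2-LTR_MM, ERVB4_3-I_MM and L1M3a stand above 2. Other ERVB4 families do not, among them ERVB4_1-I_MM (0.68) and ERVB4_1C-LTR_Mm (0.21).

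RLTR45 reads came from few places. Reads placed at a single position of the genome were summed over 4955 loci made of RLTR45 and ERVB4 fragments less than 1000 bp apart, and their total was 205 CPM in TKO and 785 CPM in QKO, against 129 CPM in WT. The 5 loci with most reads held 51.9% of the QKO total. The first, at chr15:33831595-33838615 (GRCm39, plus strand, 143565 bp from *Tspyl5*), had 18.8, 18.0, 17.9 and 19.4 CPM in TKO replicates 1 to 4 and 136, 154, 144 and 132 CPM in QKO. The second, at chr4:8117035-8124476 (plus strand, 18886 bp from *Car8*), had 2.11, 3.11, 3.06 and 3.54 CPM in TKO and 72.6, 85.1, 84.8 and 83.5 CPM in QKO, a ratio of 27.6, while WT cells had 0.0589 ± 0.0585 CPM. At both the QKO libraries lay far above the TKO libraries.

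The next loci lay at chr16:43584453-43591879, inside *Drd3* on its opposite strand (7.95 ± 0.772 to 66.7 ± 4.55 CPM), at chr8:20119650-20127119 (8.39 ± 0.654 to 66.1 ± 4.25 CPM) and at chrY:43879801-43887212 (7.89 ± 1.09 to 51.1 ± 4.03 CPM). Of the 12 loci with most reads, 10 had a ratio over 6 and 2 did not move: a fragment of 64 bases in *Psmd2* (31.5 ± 2.07 and 32.3 ± 2.95 CPM) and a fragment in *Norad* (12.6 ± 2.61 and 11.0 ± 2.57 CPM), both inside expressed genes. Of 78 loci over 1 CPM in QKO, a choice that favours high ratios, 58 had a ratio over 2. Of 28 loci over 1 CPM in TKO, a choice that favours low ratios, 18 had a ratio over 2 and 0 one under 0.5. No test was run over loci.

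**Figure D4:**
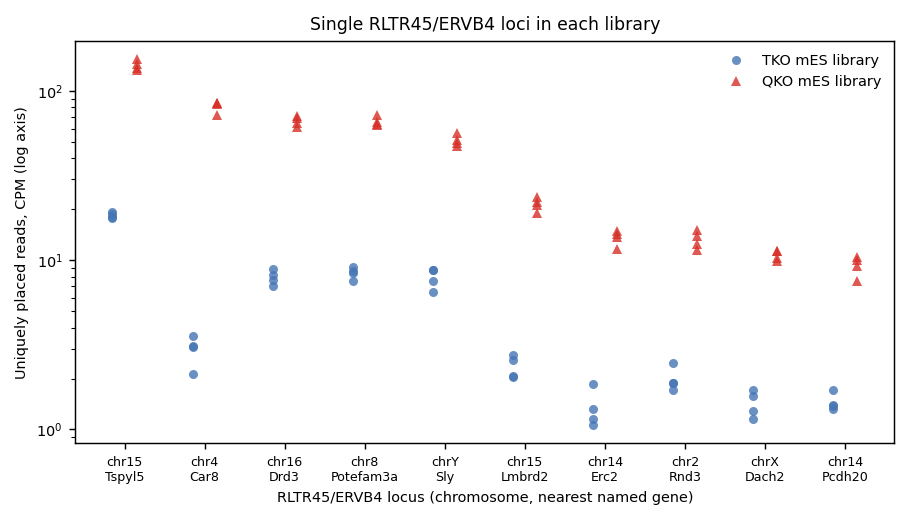
The 10 RLTR45 and ERVB4 loci with a ratio over 2 among the 12 with most reads are drawn in each TKO (circles) and QKO (triangles) mES library, as CPM of reads placed at a single position (log axis). At every locus the 4 QKO libraries lie above the 4 TKO libraries, and the locus near *Car8* has the widest gap.

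Over single TE copies 6573 of 53304 rose (12.3%) and 230 fell (0.431%), with a median of 0.47. Copies outside genes rose most often, 2022 of 8694 (23.3%), against 1835 of 19822 (9.26%) inside a gene on its strand and 2716 of 24788 (11.0%) on the other strand. The strand setting of the counting is not known, so copies on either strand of a gene may hold its reads. Among families, 98 of 108 RLTR45-int copies rose and 111 of 298 of RLTR4_MM-int, but 51 of 496 of L1MdA_I, a share below that of all copies. Enough reads in the libraries of either group alone admitted a copy to the test. An RMER19B copy with 0.00826 CPM in TKO and 1.02 CPM in QKO was tested in this way. Copies with few reads in both groups are outside all these denominators. The part of this filter in the shares by place and by family was not tested.

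Some of the leading genes contain risen copies. All 4 copies tested within *Platr15* lie on its strand and rose, first an RLTR4_MM-int fragment at chr2:150546073-150546803 (0.736 to 13.1 CPM, 4.14), so the gene's value and those of its copies share reads. All 11 copies tested within *Adam32* rose, with a median of 2.73, though only 3 of them lie on its strand. The strand setting of the counting is not known, so gene and copies may share reads here too. *Alg13* showed the reverse: its 65 copies, 22 of them on its strand, had a median of 0.48, 2 rose and 0 fell. The gene's own reads fell by 3.16 on the log2 scale. Few risen genes had an RLTR45 locus nearby. Of the genes that rose 9 of 956 (0.941%) lay within 50 kb of 1 of the 58 risen loci, as did 0 of 496 that fell and 44 of 23399 of all genes (0.188%). Of these 9 genes 7 overlap the locus itself, so that gene and locus can share reads, and the loci had been taken for their level and ratio in QKO. *Car8*, next to the locus with the highest ratio among the 78, did not rise (-0.50, adjusted p = 0.166).

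Loss of LBR on the WT background, in LBR KO against WT mES cells, was then set beside the response of the cells without lamins. The pair shares no library with TKO and QKO. WT replicates 1 to 4 had 27.7 M to 33.1 M counts on genes and replicates 5 to 8 had 39.4 M to 46.6 M. LBR KO libraries had 39.7 M to 48.0 M, and their effect was taken against all 8 WT libraries together. QKO and LBR KO cells were derived separately, and QKO is a single clone. In a difference between the backgrounds, the lamins, the clone and the depth of sequencing therefore cannot be told apart. There 716 genes were higher and 761 lower, and the test of the difference between both effects called 959 genes (4.10%) with a more positive effect on the TKO background and 796 (3.40%) with a more negative one. Of the 956 genes that rose in QKO, 107 (11.2%) rose and 88 (9.21%) fell in LBR KO, where 3.06% and 3.25% of all genes did so, and these 107 were 14.9% of the genes that rose there. Of the 496 that fell, 69 (13.9%) fell and 22 (4.44%) rose in LBR KO.

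For 22 of the 24 leading genes the difference between backgrounds passed both thresholds, a count that their choice on the TKO background favours. *Platr15* had 0.188 ± 0.0689 CPM in WT and 0.210 ± 0.173 CPM in LBR KO, and its effect differed by 3.80 ± 0.57 between the backgrounds (edgeR adjusted p = 2.32e-06). *Alg13* differed by -3.18 ± 0.11 and *Crb3*, which was higher in LBR KO than in WT (0.80 ± 0.10), by -3.37 ± 0.18. *Adam32* and *Stk33* had effects more positive by 4.43 ± 0.50 and 4.59 ± 1.05. *Slc38a4* and *Emb* fell on both backgrounds, by 1.41 and 1.16 on the log2 scale in LBR KO, and more so in QKO (differences of -1.08 ± 0.16 and -1.43 ± 0.13). *Serpina3m* rose on both (1.94 ± 0.47 in LBR KO), and the difference of 0.70 ± 0.68 did not pass (adjusted p = 0.578). RLTR45-int went the other way in LBR KO, from 51.4 ± 8.49 to 32.7 ± 3.89 CPM (-0.65 ± 0.13), and its effects differed by 3.44 ± 0.20 (adjusted p = 3.63e-16).

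The strongest differences between backgrounds came from other genes. *Lefty2* had 25.7 ± 1.30 CPM in TKO and 24.3 CPM in QKO (-0.08 ± 0.22). Its difference of 7.14 ± 0.43 went with a fall from 22.6 ± 10.2 CPM in WT to 0.146 ± 0.0334 CPM in LBR KO. *Aass*, a lysine-degrading enzyme gene, rose in QKO (3.24 ± 0.435 to 16.5 ± 0.513 CPM, 2.34 ± 0.24) and fell in LBR KO (-2.60 ± 0.25). At the other end stood the keratin *Krt17* (2.71 ± 0.294 to 0.0975 ± 0.0281 CPM, -4.73 ± 0.34) and *Tgfbi*, a matrix protein gene (3.88 ± 0.971 to 0.433 ± 0.240 CPM, -3.15 ± 0.24). In LBR KO these genes had small effects of -0.47 ± 0.18 and 0.27 ± 0.16.

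**Figure D5:**
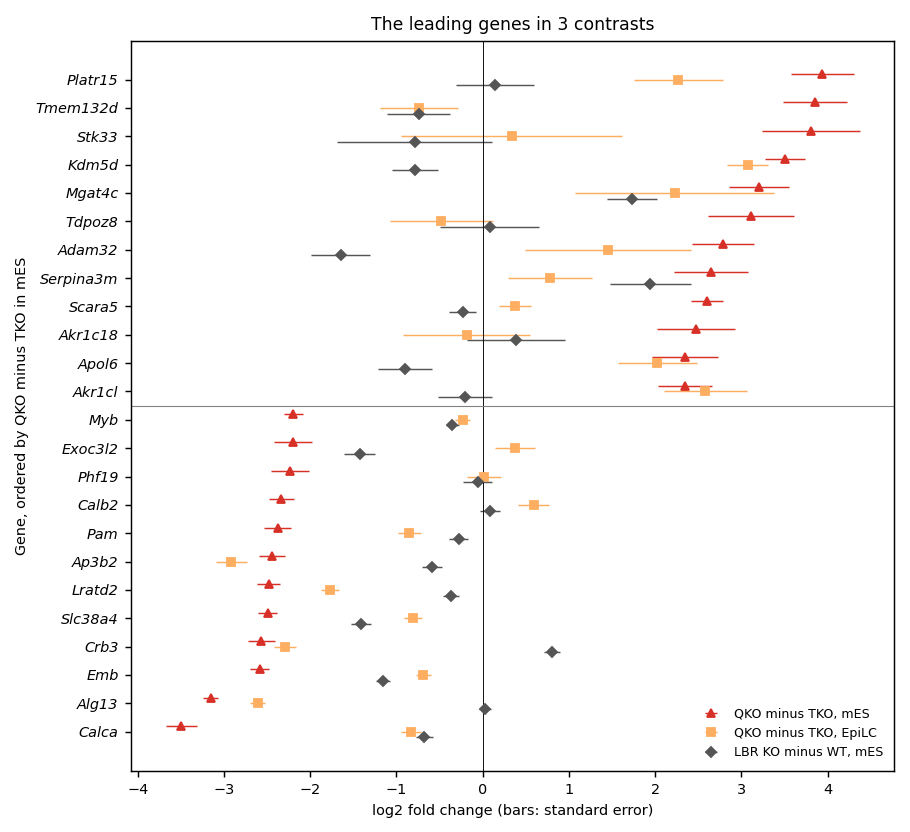
For the 24 leading genes the log2 fold change is drawn for QKO minus TKO in mES cells (triangles), QKO minus TKO in EpiLCs (squares) and LBR KO minus WT in mES cells (diamonds), with bars of 1 SE. The diamonds of all 24 genes lie nearer to 0 than the triangles, and the squares of *Platr15*, *Kdm5d*, *Akr1cl*, *Crb3* and *Alg13* lie on the side of the triangles.

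The same disruption was measured in EpiLCs, the primed stage, in libraries that are not shared with the mES comparison. QKO EpiLCs had 2333 genes higher and 1237 lower than TKO EpiLCs. The test of the difference between stages called 1008 genes (4.31%) with a more positive effect in EpiLCs and 798 (3.41%) with a more negative one. Of the 956 genes that rose in mES cells 341 (35.7%) also rose in EpiLCs and 44 (4.60%) fell, where 9.97% and 5.29% of all genes did so. Of the 496 that fell in mES cells 152 (30.6%) fell and 33 (6.65%) rose.

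*Alg13* (152 ± 15.9 to 25.0 ± 1.17 CPM, -2.61 ± 0.09), *Crb3* (-2.29 ± 0.13) and *Kdm5d* (1.05 ± 0.282 to 8.85 ± 0.208 CPM, 3.07 ± 0.24) changed in the same direction in EpiLCs. *Tmem132d* did not, with 0.575 ± 0.0656 CPM in TKO EpiLCs and 0.340 ± 0.0560 CPM in QKO EpiLCs (difference between stages -4.60 ± 0.58, edgeR adjusted p = 6.55e-08). *Calca* fell less in EpiLCs, from 30.8 ± 0.818 to 17.3 ± 0.382 CPM (2.66 ± 0.22), and so did *Emb*, *Slc38a4* and *Myb* (1.90 ± 0.14, 1.68 ± 0.15 and 1.97 ± 0.14). *Calb2* fell in mES cells and was higher in QKO at this stage, with 1.86 ± 0.328 against 2.76 ± 0.465 CPM in EpiLCs (2.92 ± 0.23). *Eomes*, lower in QKO mES cells, had 7.88 ± 1.22 CPM in TKO and 21.4 ± 0.973 CPM in QKO EpiLCs (2.86 ± 0.17).

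TEs showed both patterns. In EpiLCs 249 families were higher and 1 lower in QKO, with a median of 0.84. RLTR45-int stayed low there, at 20.2 ± 1.14 CPM in TKO and 39.2 ± 3.14 CPM in QKO (0.96 ± 0.15). The difference of its effect from that in mES cells was -1.83 ± 0.21 (edgeR adjusted p = 1.43e-08). L1MdA_I went from 1303 ± 116 to 2946 ± 394 CPM (1.18 ± 0.18), an effect more positive than in mES cells by 0.79 ± 0.25 (adjusted p = 0.0205). The first RLTR45 locus, near *Tspyl5*, had 0.103 ± 0.0447 CPM in QKO EpiLCs.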

How the data were processed

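Total RNA was depleted of ribosomal RNA, made into libraries with a strand-keeping kit and sequenced. Per the labels and the study's methods, the authors trimmed reads with cutadapt 2.5, aligned them to GRCm39 with STAR 2.7.10a, indexed them with SAMtools 1.10 and counted reads with featureCounts 1.6.4, and the deposited count tables hold raw counts per gene and per TE copy from reads with a single alignment, beside a table of estimated counts (expected counts, all whole numbers in the file) of genes and TE families that the authors made by TEcount with reads allowed many positions. Of the strand setting of the counting the sources used here say nothing, and overlapping genes and antisense pairs may share counts. Reads of young repeats are lost from the first kind of table and shared among copies in the other.

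Here, the 40 libraries were fitted with a mean per group in edgeR 4.0.16 (R 4.3.3) with TMM scaling, its filter on low counts and the quasi-likelihood test. Genes and families were tested in separate fits, families together with the gene counts of their table. Single copies were fitted in the 8 TKO and QKO mES libraries alone, with the library sizes and TMM factors of the gene counts. They had to have at least 10 counts in at least 4 of these libraries. The called threshold was an adjusted p under 0.05 with a fold change over 2. Differences between backgrounds and stages were contrasts of the same fit. DESeq2 1.42.0 was an alternative. Shares of counts were compared with SciPy 1.17.1. The gene test was tested on simulated data for QKO against TKO mES cells over 22362 genes, where an adjusted p under 0.05 was reached by 50 of 50 genes changed 4-fold, 39 of 50 changed 2-fold, 47 of 50 set to 0.5 and 48 of 50 set to 0.25 of their level. The changed genes were drawn only from those with a mean count over 50. These shares therefore do not cover genes with fewer reads, among them many of the genes that rose. Positions came from the GENCODE annotation of GRCm39 for 56017 of 56748 gene IDs, and upstream windows from its genome sequence. Figures were drawn with matplotlib 3.10.9.

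Named genes were the targeted genes, *Platr15*, *Calca* and *Slc38a4*, the 12 called genes with the highest and the 12 with the lowest log2 fold change that had no overlap between libraries, at least 5 CPM in the higher group and a gene symbol that is no clone name, the members of 26 lists by function, 8 TE families with at least 1 CPM and 5 genes per direction of each difference between effects. The comparison, its genes and the lists were chosen with earlier results of these data known. Alternatives were other scalings, filters, a block of replicate number, only the libraries compared, and each library left out in turn. A few genes and a sequence are not reported here.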

Additional observations from a re-analysis of the deposited data

Results flagged for a closer look

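Some libraries stood far from the others of their group, with a gap to the nearest library that took most of the group's range. This held in 16 of 290 groups of 4 libraries checked (5.52%), and chance gives about 1 in 20. In TKO the gap as a share of the range was 0.846 for *Lratd2*, 0.941 for *Asz1*, 0.851 for *Plk2*, 0.904 for *Igf2*, 0.957 for *Pcdhgc4*, 0.885 for *Slfn4*, 0.976 for L1MdA_II and 0.832 for the RLTR45 locus ranked 12 by its reads, near *Pcdh20*. In QKO it was 0.887 for *Lmnb2*, where replicate 3 was high, 0.853 for *Platr15*, where replicate 2 was high, 0.98 for *Serpina3m*, 1 for *Tal1*, 0.864 for *Sox11*, 0.925 for *H2bc14*, where replicate 4 was high, 0.952 for MER57E2 and 0.868 for the RLTR45 locus ranked 2, near *Car8*, where replicate 1 was low.

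The effect of *Lbr* disruption on the TKO background differed from that of LBR loss on the WT background, by the test of that difference in edgeR, for 22 of the 24 leading genes. The log2 difference of the effects was 3.80 for *Platr15*, 4.60 for *Tmem132d*, 4.59 for *Stk33*, 4.29 for *Kdm5d*, 1.47 for *Mgat4c*, 3.03 for *Tdpoz8*, 4.43 for *Adam32*, 2.83 for *Scara5*, 2.09 for *Akr1c18*, 3.25 for *Apol6* and 2.55 for *Akr1cl*. For genes that fell it was -2.82 for *Calca*, -1.08 for *Slc38a4*, -3.18 for *Alg13*, -1.43 for *Emb*, -3.37 for *Crb3*, -2.11 for *Lratd2*, -1.85 for *Ap3b2*, -2.10 for *Pam*, -2.42 for *Calb2*, -2.18 for *Phf19* and -1.84 for *Myb*. The 8 leading TE families, chosen for their effect on the TKO background, which favours such a difference as it does for the genes, differed as well, RLTR45-int by 3.44, ERVB4_2-I_MM by 3.42, L1M3a by 2.201, ERVB4_3-I_MM by 2.14, ERVB4_2-LTR_MM by 2.10, MER57E2 by 1.45, RLTR13B1 by 1.15 and RLTR13D4 by 1.12.

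Between stages the effect in EpiLCs differed from that in mES cells for 13 of the 24 genes. The difference was negative for *Tmem132d* (-4.60), *Tdpoz8* (-3.60), *Akr1c18* (-2.66), *Scara5* (-2.22) and *Serpina3m* (-1.86). It was positive for *Calb2* (2.92), *Calca* (2.66), *Exoc3l2* (2.58), *Phf19* (2.25), *Myb* (1.97), *Emb* (1.90), *Slc38a4* (1.68) and *Pam* (1.53). Of the TE families L1M3a (-1.99), RLTR45-int (-1.83), ERVB4_3-I_MM (-1.76) and ERVB4_2-I_MM (-1.68) differed, each with the weaker effect in EpiLCs.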

How the results depend on the processing

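None of the 24 leading genes changed direction or lost its call under any alternative run. The genes followed one by one were the targeted and leading genes and those named for differences between effects. Of these none with an adjusted p under 0.05 in the main edgeR fit changed sign. Counts of genes stayed within 1.5 times the values given, except that without a fold threshold 2144 genes were higher and 2650 lower, and 607 families higher and 1 lower. IAPA_MM-int was the 1 family lower, past both thresholds, with only the 8 libraries, with the replicate block and in DESeq2. The replicate block gave 960 genes higher and 439 lower and ended the call of none of the leading genes. With it *Lmna* (adjusted p = 0.0037), MMETn-int (0.025), L1MdA_I (1.8e-07) and B2_Mm1a (1.0e-05) passed the p threshold. The labels tie no shared origin to a replicate number. The deviations of same-numbered TKO and QKO libraries from their group means correlated at 0.10, 0.11, 0.02 and -0.01 for replicates 1 to 4 over all genes and at 0.55, 0.44, 0.11 and -0.13 over genes with a mean log2 CPM over 4, and not every library correlated best with its own number. The numbers were therefore not taken to pair the libraries, though replicates 1 and 2 deviated together among the better expressed genes. Copies with at least 20 counts, of which fewer were tested, gave 2637 higher and 122 lower. Scaling by the TE families themselves, added after seeing the data, left 4 families higher and turned the sign of 11 named families, by the construction of that scaling: L1MdF_IV to -0.0090, B1_Mm to -0.024, L1MdA_VII to -0.030, L1MdGf_I to -0.022, L1MdTf_I to -0.042, MT2_Mm to -0.063, MIR to -0.071, L1MdTf_II to -0.10, L1MdF_V to -0.16, L2a to -0.24 and IAPEz-int to -0.34. With 1 library left out, genes that rose ranged from 753 to 928 and those that fell from 471 to 488, families higher from 34 (without QKO replicate 3) to 75 (without TKO replicate 4) with 0 lower, copies from 4731 to 7584 and 183 to 252, differences between backgrounds from 910 to 967 and 722 to 763, differences between stages from 937 to 1020 and 720 to 798, and the share of counts on TEs from 3.00 to 3.82 percentage points. A permutation of 3 against 4 libraries cannot pass the threshold, so these shares test nothing. Depth limits genes under 1 CPM, which rest on few reads per library.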
